A study of Mesocentrotus franciscanus with 18 samples.

Results

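The muscle of Aristotle's lantern (ALM), the tissue that moves the jaws of the sea urchin, was compared between Large and Small red sea urchins (Mesocentrotus franciscanus) in 6 of the 18 RNA-Seq libraries of the study. Members were chosen by tissue label, and every feature that passed a filter on low counts was tested, which left 24483 of 127111 features. ALM-S and ALM-L had 3 libraries each, 1 for each of the sampling years 2010, 2011 and 2013. All animals were wild, untreated and of unstated genotype and sex. Small animals stood for young and Large animals for old ones, since age was estimated from the diameter of the test (the shell). Each library held RNA pooled from several animals of 1 size and year, so the spread within a group was that between pools and years and not between animals. Levels are CPM (counts scaled to a common library size, with TMM factors), values of a gene are given in the order 2010, 2011 and 2013, and a positive log2 fold-change means a higher level in ALM-L.

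The lantern is a jaw of calcite pieces joined by muscles and ligaments. Its muscle contracts through actin, myosin, tropomyosin and troponin, as in other animals. Sea urchins build calcite in skeleton-forming cells, called sclerocytes in adults, which secrete spicule matrix proteins and carry Msp130-type proteins on their surface. Sea urchins go on growing through life while their growth rate slows with size, and myostatin, in mammals an inhibitor of muscle growth, is one of the signals measured here.

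Trinity gene groupings carry no gene names in the table of counts, so a grouping was named after a gene of the purple sea urchin S. purpuratus (SPU identifiers) where its counts equalled those printed for that gene in the supplementary tables of the study. This linked 891 SPU genes, of which 590 were tested in ALM. Of these, 109 came from the table of ALM genes that the study had chosen on these same libraries, which is not independent evidence of their direction. The other 481 came only from the tables of esophagus (ES) or radial nerve (RN). Those tables too were chosen on Large against Small, in other tissues of the same animals. MstnB, EBP and SM30E were also measured in ALM by qRT-PCR. The primers that the study used for these genes are shown, and they were not matched to the groupings. The capitals mark the 5 bases at the 3′ end of each primer, and positions on a genome were not analysed here.
MstnB (SPU_002795) forward: tcgagggtcgtgcGATTC
MstnB (SPU_002795) reverse: cctcatagtgtgcgcgtAGAAG
EBP (SPU_013736) forward: ttcgacatcacgagcGAAAC
EBP (SPU_013736) reverse: caaagcttggcccGACAT
SM30E (SPU_004867) forward: ccaagcccagttccAAGGA
SM30E (SPU_004867) reverse: gttggcgattaccaggTTGAC

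Total counts of the 6 libraries ranged from 9516568 to 11547218, and the 50 features with the most counts took from 49.8 to 67.7% of a library. The first principal component held 48.1% of the variance. ALM-L of 2011 (-134.5) and ALM-S of 2010 (-51.0) had its lowest scores, although they differed in both size and year. ALM-S of 2010 lay nearer to ALM-L of 2013 (-7.64) than to ALM-L of 2011. TMM factors ranged from 0.689 to 1.11 in ALM-S and from 0.844 to 1.31 in ALM-L. Without these factors the median log2 fold-change of all features was 0.35 in place of 0.01, and 74.7% of features in place of 50.5% were higher in ALM-L. The coefficient of biological variation was 46.6%. Muscle genes identified the tissue, since muscle actin (Msclact, SPU_006797) alone took from 11.02 to 21.9% of the counts of a library.

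A single feature passed the call rule (edgeR, Benjamini-Hochberg adjusted p under 0.05 and absolute log2 fold-change above 1), which is 0.00408% of the features tested for a lower level in ALM-L and 0% for a higher one. It was Sm29 (SPU_005990), a protein of the calcite spicule matrix. Sm29 was at 70.0, 65.1 and 46.3 CPM in ALM-S and at 4.12, 3.11 and 2.21 CPM in ALM-L. Each Small library was thus above each Large one, and Sm29 fell by 4.26 on the log2 scale with an SE of 0.40, or 19.1-fold (adjusted p = 0.0385). With the sampling year as a block the adjusted p of Sm29 was 0.259 and no feature was called. The call was also lost without ALM-S of 2010 (adjusted p = 0.161), ALM-S of 2011 (0.323), ALM-L of 2010 (0.0927) or ALM-L of 2013 (0.222), and with library totals alone (0.112).

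Below that rule, 932 features (3.81%) were higher and 751 (3.07%) were lower in ALM-L at an unadjusted p under 0.05 in edgeR, and 68 had an adjusted p under 0.1. DESeq2 on the same features called 172 (0.703%) higher and 180 (0.735%) lower in ALM-L. All 3 Large libraries were above all 3 Small ones in 6.23% of features and below them in 5.78%. The counts of gene lists that follow are read against these shares. In pooled tissue, fewer cells of a type and less RNA per cell cannot be told apart.

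**Figure D1:**
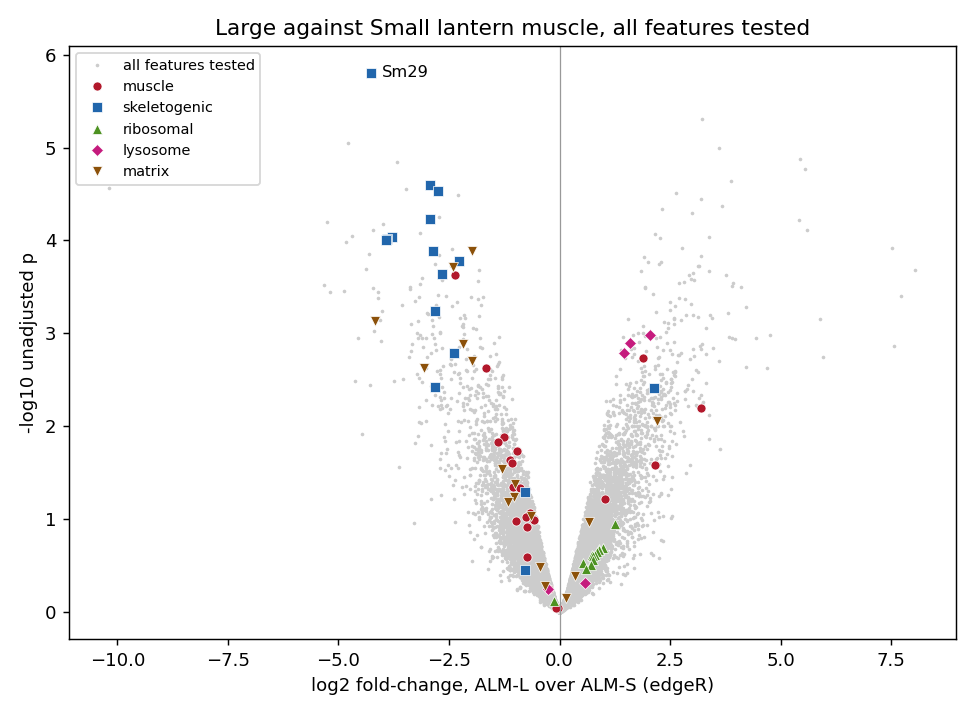
The plot shows each of the 24483 features tested in ALM by its log2 fold-change of Large over Small (x axis) and by the negative log10 of its unadjusted edgeR p (y axis), with the genes of 5 lists (muscle, skeletogenic, ribosomal, lysosome and matrix) in colour and all other features in grey. Sm29, at a log2 fold-change of -4.26, is the single feature past the call rule, and most of the skeletogenic genes lie on the side of lower levels in ALM-L.

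Sm29 belonged to a group of 16 genes of calcite formation, all linked and all tested, of which 15 were lower and 1 was higher in ALM-L, with a median log2 fold-change of -2.81 beside 0.01 over all features. In 14 of the 16 genes all 3 Large libraries were below all 3 Small ones (background 5.78%), and 13 of these 14 also separated with library totals alone. The unadjusted edgeR p was under 0.05 in 13 genes that were lower and in 1 that was higher, and DESeq2 called the same numbers, 13 lower and 1 higher. Since 14 of the 16 came from the table chosen on these libraries, their direction is a description. The remaining pair, Sm30D and Cara14LA, had log2 fold-changes of -0.78 and -0.77 and passed neither test.

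Among the spicule matrix genes, SM30E was at 29.1, 20.7 and 10.7 CPM in ALM-S and at 1.51, 2.03 and 0.483 CPM in ALM-L. Its log2 fold-change was -3.92 ± 0.61 (SE), and its adjusted edgeR p of 0.0728 missed the rule although the groups did not overlap. Pm27 was at 55.5, 31.7 and 30.6 CPM in ALM-S and at 4.61, 9.96 and 4.28 CPM in ALM-L (log2 fold-change -2.65 ± 0.46 SE, adjusted p = 0.0938). Sm32 and Sm37 had log2 fold-changes of -2.28 and -2.81, and both were lower in each year. Sm30D, a close relative of SM30E, overlapped between the sizes, at 3.38, 1.24 and 0.338 CPM in ALM-S and 0.962, 0.428 and 1.31 CPM in ALM-L, and without ALM-S of 2010 its log2 fold-change was 0.23.

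The surface protein gene Msp130r2 was at 59.4, 60.0 and 49.97 CPM in ALM-S and at 10.8, 6.10 and 5.39 CPM in ALM-L (log2 fold-change -2.92 ± 0.38 SE, adjusted p = 0.0567). P19, first known from skeleton-forming cells of the embryo, was at 26.8, 24.2 and 23.7 CPM in ALM-S and at 4.88, 3.53 and 2.69 CPM in ALM-L. The Small libraries had an SD of 1.64 CPM for P19 and the Large ones an SD of 1.10 CPM, so the gap between the sizes was many times the spread. The lectin genes Clect_13, Clect_25 and C-lectin/PMC1 and the gene p58-b had log2 fold-changes from -3.89 to -2.86. Cara7LA, a carbonic anhydrase, had one of -2.81, while a second carbonic anhydrase, Cara14LA, was at 421, 491 and 574 CPM in ALM-S and at 331, 207 and 331 CPM in ALM-L. The exception in direction was Dspp, named after dentin sialophosphoprotein, which was at 4.92, 1.05 and 2.28 CPM in ALM-S and at 8.32, 13.3 and 13.9 CPM in ALM-L (log2 fold-change 2.13 ± 0.56 SE, adjusted p = 0.284).

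**Figure D2:**
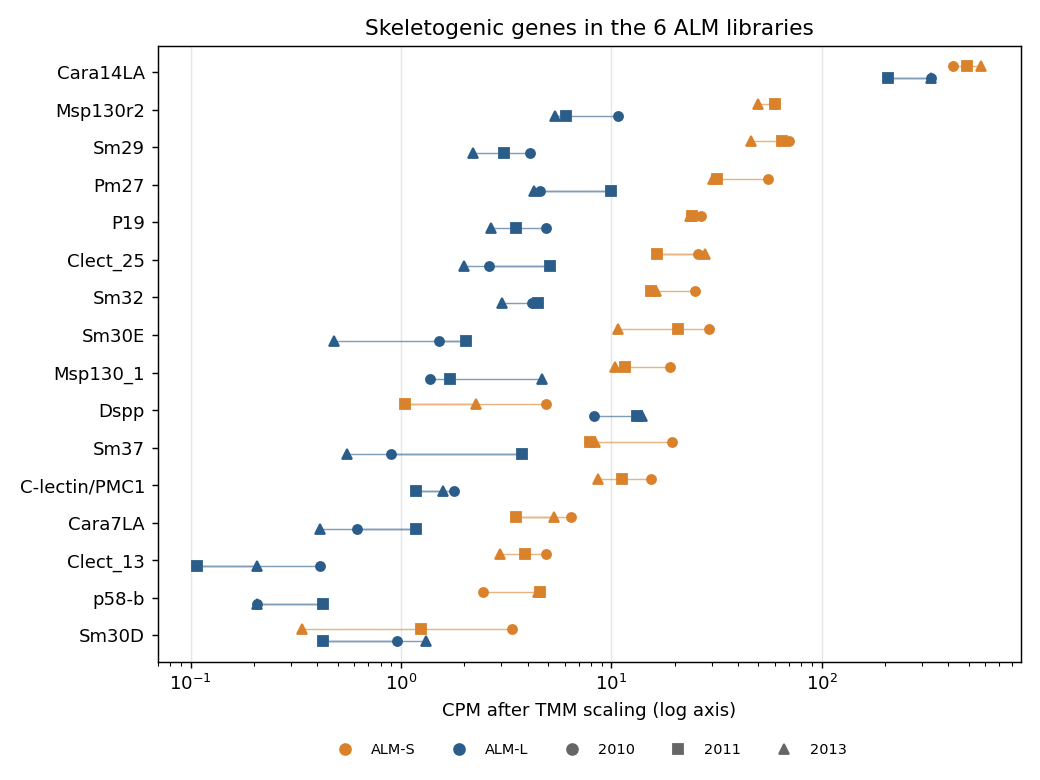
Each row is 1 of the 16 skeletogenic genes, with TMM-scaled CPM on a log x axis and 1 point for each of the 3 Small (orange) and 3 Large (blue) ALM libraries, the shape giving the year and the line the range of a group. Sm29 lies between 46.3 and 70.0 CPM in ALM-S and between 2.21 and 4.12 CPM in ALM-L, most rows show a like gap, Sm30D overlaps and Dspp is higher in ALM-L.

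Of 27 genes of muscle contraction, 23 were linked and tested, and 19 were lower and 4 higher in ALM-L, with a median log2 fold-change of -0.75. No muscle gene passed the call rule of edgeR. All 3 Large libraries were below all 3 Small ones in 13 genes (background 5.78%) and above them in 3 (6.23%), and DESeq2 called 4 lower and 2 higher. Of the 19 muscle genes that were not in the table chosen on these libraries, 16 were lower and 3 higher, with a median of -0.74, and 10 of them separated downward. These 19 came from the tables of ES or RN, chosen on Large against Small in the same animals. In RN 16 of them were lower and 3 higher, so they were not picked without regard to size. With library totals alone the median was -0.43 with 8 genes higher, and 8 genes separated downward (background 2.1%) and 3 upward (14.4%). Without ALM-S of 2010 and ALM-L of 2011 the median was -0.81.

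Muscle actin took more counts than any other gene of the list. Msclact was at 284014, 236742 and 200533 CPM in ALM-S and at 123959, 131896 and 110115 CPM in ALM-L. As a share of all counts, with no scaling factor, it took 19.4, 21.5 and 21.9% of the Small libraries and 15.95, 11.02 and 14.02% of the Large ones. The groups did not overlap on either scale, yet the log2 fold-change of -0.98 ± 0.54 (SE) did not pass the test (adjusted p = 0.877). The 23 muscle genes together took from 26.8 to 30.6% of the counts in ALM-S and from 15.3 to 22.2% in ALM-L.

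Thick and thin filament genes stood in the same order. My18A, a myosin heavy chain, was at 31959, 25661 and 25595 CPM in ALM-S and at 14153, 16380 and 9695 CPM in ALM-L (log2 fold-change -1.05). Tropmy1, the tropomyosin that covers the actin filament, was at 28218, 24592 and 16369 CPM in ALM-S and at 7431, 11552 and 7470 CPM in ALM-L (log2 fold-change -1.39, adjusted p = 0.476 in edgeR and 0.0472 in DESeq2). Actinin, which anchors actin filaments, was at 14229, 14577 and 11824 CPM in ALM-S and at 6778, 5133 and 5154 CPM in ALM-L (log2 fold-change -1.25 ± 0.41 SE). Neither group overlapped the other in these 3 genes. The myosin regulatory light chain Mrlc and creatine kinase Ckm, which restores ATP, had log2 fold-changes of -1.13 and -1.07. The troponins moved less, with -0.75 for Trop1 (troponin I) and -0.74 for TropT (troponin T), neither past an unadjusted p of 0.05.

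The genes with the smallest p of the list were SPU_005715 and ProjL among the lower ones. SPU_005715, an unnamed gene whose best human match is a LIM-domain protein of the CSRP family, was at 2816, 2900 and 1669 CPM in ALM-S and at 613, 437 and 380.3 CPM in ALM-L. Its log2 fold-change, -2.37 ± 0.41 SE, was the most negative of the list (adjusted p = 0.0938). ProjL, similar to projectin, a giant protein of the invertebrate sarcomere, was at 2609, 3008 and 3130 CPM in ALM-S and at 1313, 671 and 784 CPM in ALM-L (log2 fold-change -1.66, adjusted p = 0.236). Both were separated in each scaling.

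Not all muscle genes took part. Calpn, a calponin-type protein, was at 7329, 7565 and 4765 CPM in ALM-S and at 5645, 6191 and 4811 CPM in ALM-L, a difference of -0.24 on the log2 scale that turned to 0.12 with library totals. Fn3/Igf_38, PDLIM and Flnc (filamin) had log2 fold-changes between -0.08 and -0.04, and their groups overlapped. Obsurin ranged from 77.1 to 569 CPM within ALM-L alone, so its log2 fold-change of -0.75 was far inside the spread between pools.

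A few muscle genes with low counts were higher in ALM-L. Fhod3, a formin that in mammals organizes the sarcomere's actin, was at 3.08, 2.29 and 4.65 CPM in ALM-S and at 12.4, 16.7 and 8.36 CPM in ALM-L (log2 fold-change 1.89 ± 0.44 SE, adjusted p = 0.203). Stac3, which in vertebrates couples excitation to contraction, had 3, 0 and 6 counts in ALM-S and 77, 11 and 35 counts in ALM-L (log2 fold-change 3.20 ± 0.92 SE, adjusted p = 0.332). Both separated between the sizes and both were called by DESeq2. The titin-family genes Ttn and unc-89 had log2 fold-changes of 1.04 and 2.17, but unc-89 rested on 1 library, ALM-L of 2010, with 24.2 CPM beside 4.93 and 2.14 CPM in the others.

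**Figure D3:**
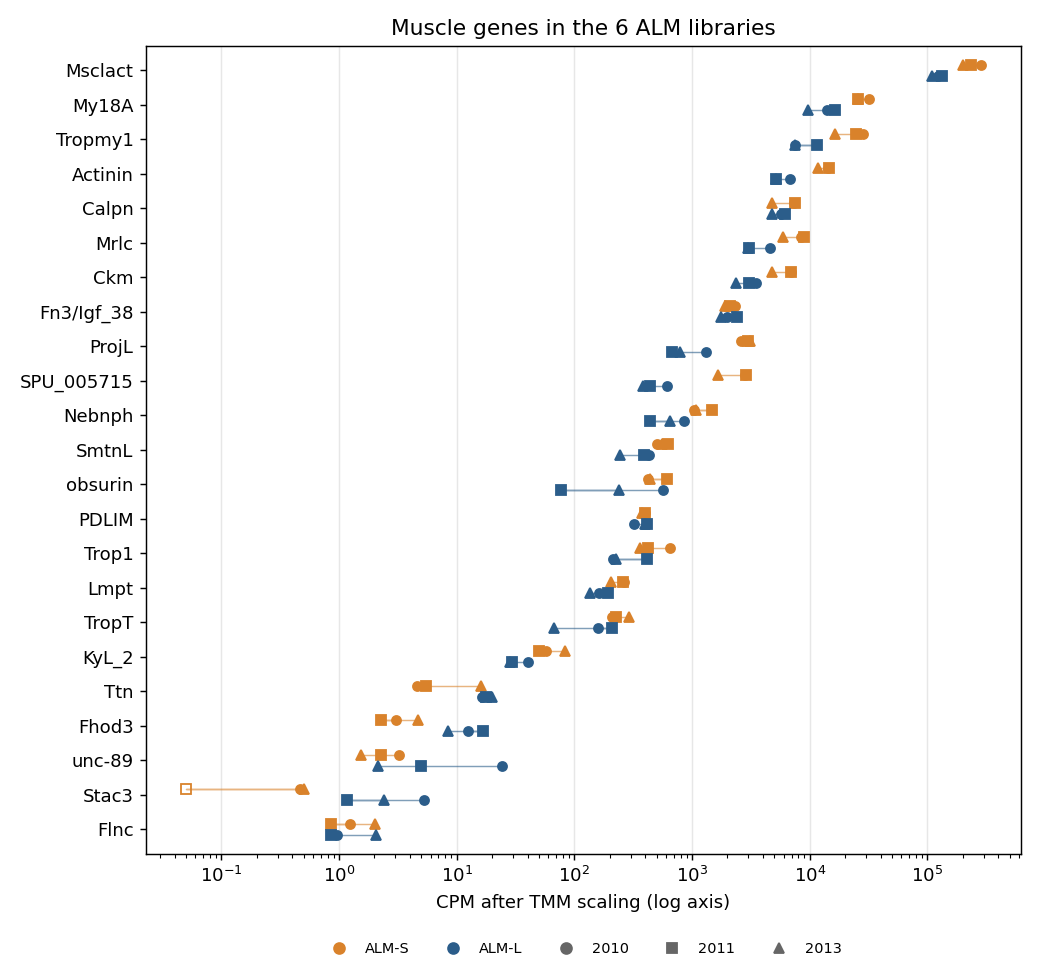
Each row is 1 of the 23 muscle genes, with TMM-scaled CPM on a log x axis and 1 point for each of the 3 Small (orange) and 3 Large (blue) ALM libraries, the shape giving the year, the line the range of a group and the open point a library with 0 counts, set at the left edge. Msclact, My18A, Tropmy1, Actinin and ProjL are lower in every Large library, Calpn overlaps, and Fhod3 and Stac3 are higher in every Large library.

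Genes of growth signalling separated in both directions, and 3 of the 5 tested were higher in ALM-L. IgfbpL7, an insulin-like growth factor binding protein with a follistatin-type part, was at 140.4, 169.9 and 163 CPM in ALM-S and at 603, 755 and 754 CPM in ALM-L. Its log2 fold-changes within the years were 2.10, 2.15 and 2.21, and that of the fit was 2.16 ± 0.33 (SE, adjusted p = 0.0728 in edgeR and 1.24e-07 in DESeq2). MstnB, the myostatin-like growth factor, was at 0.615, 0.572 and 0.676 CPM in ALM-S and at 3.16, 4.60 and 2.97 CPM in ALM-L. These are 4, 6 and 8 counts beside 46, 43 and 43, and the log2 fold-change was 2.50 ± 0.49 (SE, adjusted p = 0.131 in edgeR and 0.00695 in DESeq2). Every Large library was above every Small one for both genes.

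The other 3 genes of the growth list split in direction. Fstl5, of the follistatin family that binds growth factors, was at 37.5, 40.0 and 32.1 CPM in ALM-S and at 75.3, 63.8 and 57.7 CPM in ALM-L (log2 fold-change 0.84, adjusted p = 0.526). Tob, an inhibitor of cell proliferation, was at 42.0, 68.3 and 50.6 CPM in ALM-S and at 25.4, 5.89 and 12.8 CPM in ALM-L (log2 fold-change -1.86, adjusted p = 0.305). Bmp1/TldL2, a tolloid-type protease that in vertebrates trims procollagen and frees growth factors from their inhibitors, had a log2 fold-change of -2.18 ± 0.48 (SE). All 5 genes separated between the sizes after TMM scaling, and 4 of them were in the table chosen on these libraries. With library totals alone 3 separated upward (background 14.4%) and 1 downward (2.1%), and Tob overlapped.

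Genes of the extracellular matrix were mostly lower in ALM-L. Of 27 listed, 20 were linked and 17 tested, with 13 lower, 4 higher and a median log2 fold-change of -1.02. All 3 Large libraries were below all 3 Small ones in 7 and above them in 0 of the 17, and DESeq2 called 6 lower. Of the 10 that were not in the table chosen on these libraries, 7 were lower, with a median of -0.54, and 1 separated.

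Collagen genes led this group. 6Afcol, a fibrillar collagen, was at 48.4, 36.2 and 33.5 CPM in ALM-S and at 10.1, 9.85 and 9.88 CPM in ALM-L (log2 fold-change -1.98 ± 0.32 SE, adjusted p = 0.0823). The SD of the 3 Large pools was 0.139 CPM. FcolI/II/IIIf, another fibrillar collagen, was at 495, 308 and 199 CPM in ALM-S and at 54.1, 127 and 72.8 CPM in ALM-L, with the same log2 fold-change of -1.98 but a wider spread (adjusted p = 0.21). Colf_2 had a log2 fold-change of -2.42 ± 0.41 (SE). A2col and 3Apcol, 2 further collagens, had log2 fold-changes of -1.31 and -1.16 with overlapping groups. Loxl2, a lysyl oxidase that crosslinks collagen, was at 30.9, 27.9 and 13.6 CPM in ALM-S and at 31.1, 18.0 and 31.3 CPM in ALM-L, and Lama1, a laminin of the basement membrane, had a log2 fold-change of -0.32.

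Lysosomal genes were few but pointed upward. Of 9 listed, 6 were linked and 5 tested, with 4 higher in ALM-L and a median log2 fold-change of 1.45. The cysteine protease legumain (Lgmn) was at 49.4, 40.8 and 27.6 CPM in ALM-S and at 123, 92.5 and 137 CPM in ALM-L (log2 fold-change 1.58 ± 0.35 SE, adjusted p = 0.175). Cathepsin B (Ctsb), another lysosomal protease, was at 32.9, 24.2 and 25.1 CPM in ALM-S and at 75.8, 56.5 and 91.6 CPM in ALM-L. Smpd1, the acid sphingomyelinase, was at 2.46, 1.34 and 3.21 CPM in ALM-S and at 9.42, 10.4 and 9.12 CPM in ALM-L. These 3 genes separated, were called by DESeq2 and were all in the table chosen on these libraries. The 2 that were not, Lamp1 and Agsd, had log2 fold-changes of 0.58 and -0.26 with overlapping groups, and Lamp1 was at -0.60 without ALM-L of 2010.

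Immune genes went both ways. Of 25 listed, 18 were linked and 11 passed the filter, 8 lower and 3 higher in ALM-L, with a median of -1.96. The 4 of these 11 that were not in the table chosen on these libraries had a median of -0.83, with 3 lower and 1 higher, and 1 of them separated between the sizes while DESeq2 called 0 and edgeR had 0 past the call rule. Amassin (Ams), which clots the coelomocytes of sea urchins, was at 2.61, 4.20 and 4.99 CPM in ALM-S and at 0.137, 0.428 and 0.552 CPM in ALM-L (log2 fold-change -3.38 ± 0.61 SE, adjusted p = 0.102). Of the scavenger receptors, a large family of sea urchin immune cells whose copies can share reads, Srcr51 and Srcr226 had log2 fold-changes of -1.96 and -4.20. Srcr66, of the same family, was at 0.461, 1.72 and 1.61 CPM in ALM-S and at 11.1, 9.74 and 5.39 CPM in ALM-L (log2 fold-change 2.74). Alox5_5, a lipoxygenase of the kind that makes inflammatory lipids in mammals, had 1, 7 and 4 counts in ALM-S and 114, 22 and 122 counts in ALM-L (log2 fold-change 3.91 ± 0.70 SE, adjusted p = 0.102). The antimicrobial peptide gene Strongylocin2 was at 25.4, 14.9 and 14.5 CPM in ALM-S and at 7.56, 14.5 and 5.46 CPM in ALM-L, a narrow separation.

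**Figure D4:**
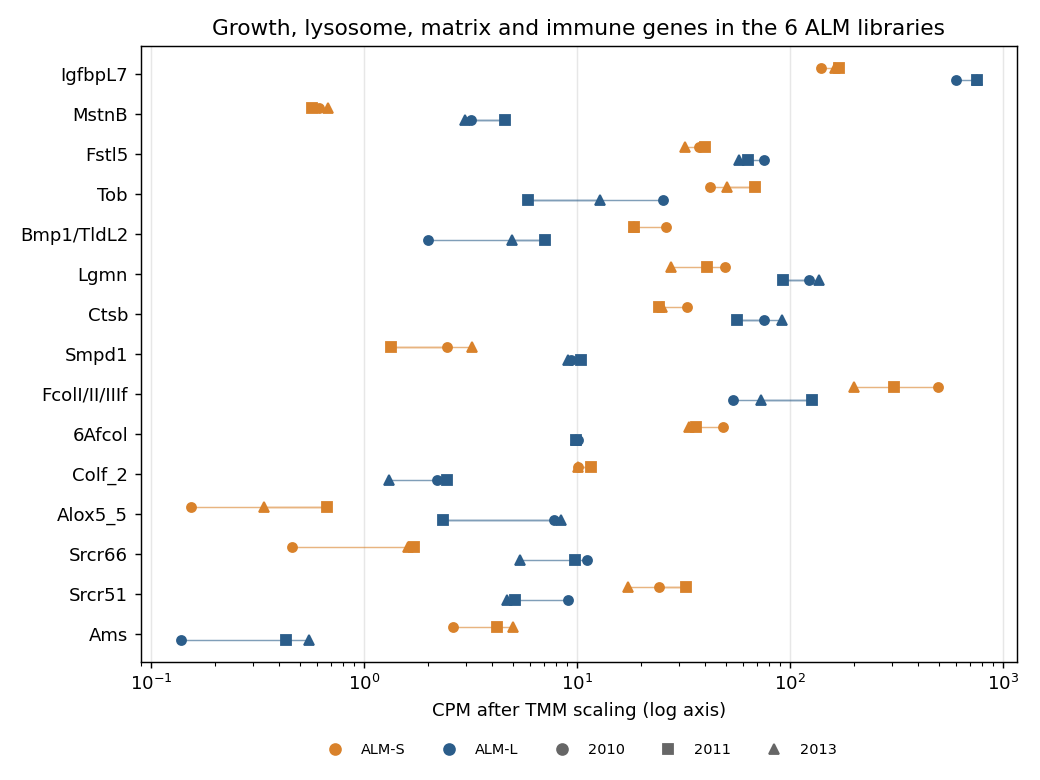
Each row is 1 gene of growth signalling, the lysosome, the matrix or immunity, with TMM-scaled CPM on a log x axis and 1 point for each of the 3 Small (orange) and 3 Large (blue) ALM libraries, the shape giving the year and the line the range of a group. IgfbpL7, MstnB, Fstl5, Lgmn, Ctsb, Smpd1, Srcr66 and Alox5_5 are higher and 6Afcol, FcolI/II/IIIf, Colf_2, Tob, Bmp1/TldL2, Srcr51 and Ams are lower in every Large library.

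Markers of other cells that a dissected lantern could hold were summed for each library. The 16 skeletogenic genes summed to between 770 and 823 CPM in ALM-S and between 264 and 378.7 CPM in ALM-L, and Cara14LA made up most of both sums. The 8 nerve genes that passed the filter, of 17 linked, summed to 102, 213 and 219.6 CPM in ALM-S and to 102, 44.0 and 51.9 CPM in ALM-L. The 11 immune genes summed to between 108 and 127 CPM in ALM-S and between 43.6 and 71.4 CPM in ALM-L. As a share of all counts, with no scaling factor, the 18 linked immune genes overlapped between the sizes. They took 0.0075, 0.0118 and 0.0134% of the Small libraries and 0.0096, 0.0060 and 0.0058% of the Large ones. The 15 cilia genes, at 436 to 483 CPM in ALM-S and 459 to 543 CPM in ALM-L, overlapped. The part of these cells in the lower levels of muscle and skeletogenic genes was not tested.

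The nerve sum rested on Gat, a GABA transporter, which was at 68.0, 159.8 and 134 CPM in ALM-S and at 34.7, 16.6 and 20.9 CPM in ALM-L (log2 fold-change -2.32 ± 0.44 SE, adjusted p = 0.118). The remaining 7 nerve genes overlapped between the sizes, with log2 fold-changes from -0.75 for syntaxin (Stx1) to 0.68 for Unc80L. Defining neuronal genes were near 0 in ALM, among them Gad, Th and Dbh_1, which did not pass the filter. Of the 15 cilia genes 9 were higher and 6 lower, with a median of 0.02. All 3 Large libraries were below all 3 Small ones in 1 of the 15 (background 5.78%) and above them in 2 (6.23%). The lower one was ODF3, an outer dense fibre protein (log2 fold-change -0.91), and the higher ones were Cfap58 and Iqcg (0.50 and 0.48). With library totals alone ODF3 and Iqcg overlapped.

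**Figure D5:**
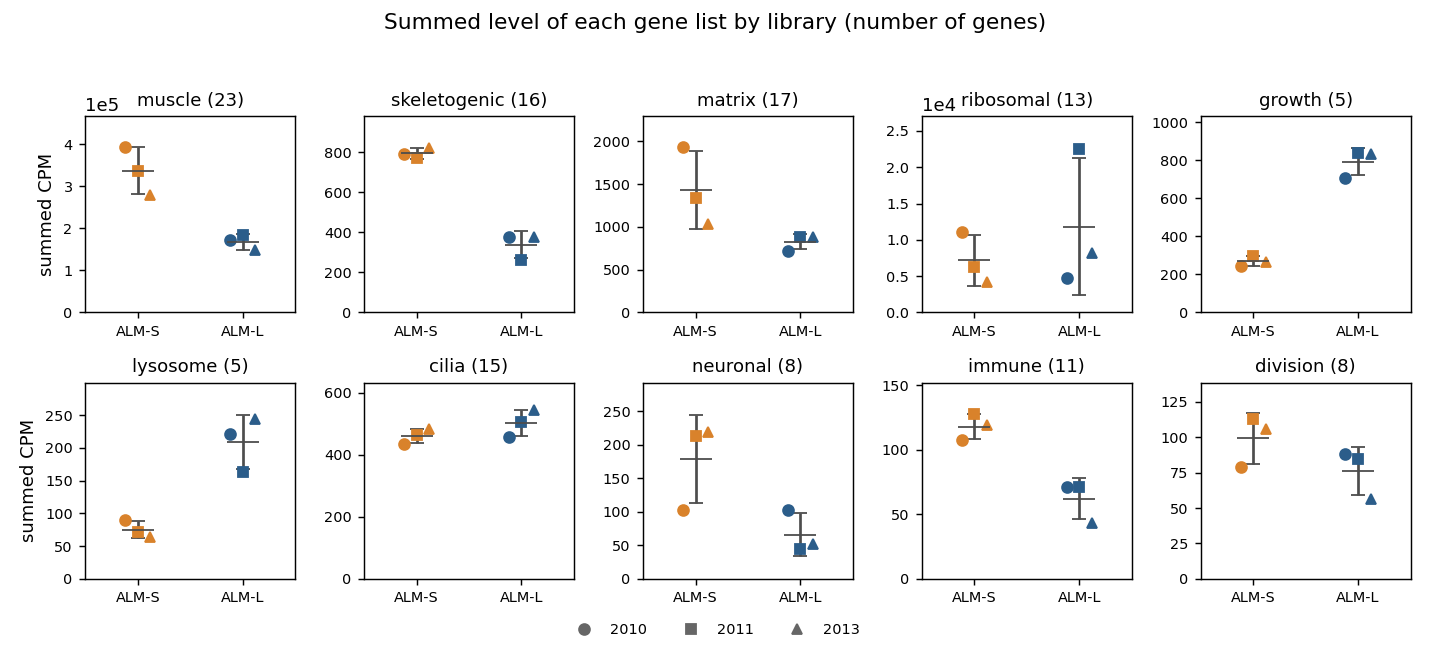
Each panel shows the summed level of 1 gene list (y axis from 0, TMM-scaled CPM), with 1 point for each of the 3 Small and 3 Large ALM libraries, the shape giving the year, and with the mean and SD of each size as bars. On this scale the muscle, skeletogenic, matrix and immune sums are lower and the growth and lysosome sums higher in every Large library, whereas the cilia and ribosomal sums overlap. As a share of all counts, with no scaling factor, the immune genes overlap between the sizes.

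Ribosomal protein genes followed single libraries and not size. Their sum was 11097, 6313 and 4222 CPM in ALM-S and 4682, 22487 and 8246 CPM in ALM-L. The highest library of each size, ALM-S of 2010 and ALM-L of 2011, also had the lowest scores on the first principal component. Of 13 tested, 12 were higher in ALM-L, with a median of 0.76, and all 13 overlapped between the sizes. Without ALM-L of 2011, 12 of the 13 were lower. Rps28 was at 826, 339.8 and 308 CPM in ALM-S and at 339.8, 2452 and 710.0 CPM in ALM-L.

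Genes of cell division were measured at low levels, with 8 of 12 tested, 3 higher and 5 lower in ALM-L. Melkl, a kinase of dividing cells in mammals, was at 21.4, 24.9 and 18.6 CPM in ALM-S and at 7.42, 6.85 and 9.05 CPM in ALM-L (log2 fold-change -1.47, adjusted p = 0.175). Kif4, a kinesin of the mitotic spindle, was at 2.92, 2.86 and 3.55 CPM in ALM-S and at 8.11, 19.3 and 7.53 CPM in ALM-L (log2 fold-change 1.89, adjusted p = 0.251). Uhfr1, which in mammals maintains DNA methylation after replication, had a log2 fold-change of 1.48, and its Small library of 2013 at 18.9 CPM was close to the Large one at 20.03 CPM. Some lists share genes, such as Tob in growth and division and Bmp1/TldL2 in growth and matrix. Melkl, Kif4 and Tob were all in the table chosen on these libraries. Kif4 separated upward, and Melkl and Tob separated downward. Of the 5 tested division genes outside it, 1 separated upward (background 6.23%) and 4 overlapped.

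Sfe9, Prtelsn_1 and Rej8L, set side by side here after their values were seen, were lower in the lantern of Large animals in each year. Sfe9, a protein of the fertilization envelope, was at 227, 101 and 101 CPM in ALM-S and at 3.92, 8.35 and 3.38 CPM in ALM-L (log2 fold-change -4.78 ± 0.55 SE, adjusted p = 0.0567 in edgeR and 3.41e-15 in DESeq2). Prtelsn_1, proteoliaisin, which also belongs to that envelope, had 37, 88 and 177 counts in ALM-S and 10, 2 and 1 counts in ALM-L (log2 fold-change -4.83 ± 0.75 SE). Rej8L, named after the sperm's receptor for egg jelly, was at 29.7, 26.1 and 24.3 CPM in ALM-S and at 2.34, 2.89 and 1.04 CPM in ALM-L (log2 fold-change -3.68 ± 0.45 SE, adjusted p = 0.0567). No group overlapped in these 3 genes, which all came from the table chosen on these libraries.

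The carotenoid-binding protein gene EBP (echinenone-binding protein) was at 154, 148 and 56.5 CPM in ALM-S and at 9.07, 12.9 and 10.6 CPM in ALM-L. Its log2 fold-change was -3.46 ± 0.46 (SE, adjusted p = 0.0567), and the year 2013 gave the smallest ratio, -2.40, beside -4.06 in 2010. Gucy1b3, the beta subunit of the soluble guanylyl cyclase that nitric oxide activates, was at 3.23, 4.39 and 3.38 CPM in ALM-S and at 71.5, 19.8 and 49.5 CPM in ALM-L (log2 fold-change 3.67 ± 0.51 SE, adjusted p = 0.0653). Hnmtl, similar to histamine methyltransferase, which inactivates histamine in mammals, had a log2 fold-change of 2.84 ± 0.53 (SE). Cntnap4L_2, of the family of contactin-associated proteins, was at 30.9, 40.1 and 24.6 CPM in ALM-S and at 8.73, 4.39 and 4.28 CPM in ALM-L (log2 fold-change -2.45). Every one of these 4 genes separated between the sizes, and all 4 came from the table chosen on these libraries.

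Among genes of stress and calcium handling, the metallothionein Mt1, which binds metal ions, was at 482, 448 and 378 CPM in ALM-S and at 785, 3697 and 1128 CPM in ALM-L (log2 fold-change 2.10, adjusted p = 0.313). Its highest value came from ALM-L of 2011, and without that library the log2 fold-change of Mt1 was 1.13. Gpx1_1, a glutathione peroxidase that removes peroxides, had a log2 fold-change of -1.62 ± 0.41 (SE). Pcalr, of the calcium-binding calbindin type, was at 9.84, 8.30 and 7.10 CPM in ALM-S and at 79.5, 18.4 and 19.5 CPM in ALM-L (log2 fold-change 2.22, or 1.19 without ALM-L of 2010). CspeN4, a caspase, was at 36.4, 18.8 and 7.44 CPM in ALM-S and at 141, 55.5 and 70.2 CPM in ALM-L (log2 fold-change 2.09). The forkhead factor FoxA, in the embryo a regulator of the endoderm, had 14, 16 and 23 counts in ALM-S and 3, 1 and 0 counts in ALM-L. Its level in ALM was thus at most 2.15 CPM, beside 535 to 759 CPM in the libraries of ES. Pfn4, a profilin that binds actin, had a log2 fold-change of -2.15 ± 0.43 (SE). All genes from Mt1 to Pfn4 came from the table chosen on these libraries.

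Of the 481 linked genes that the study had not chosen on ALM, 201 were higher and 280 lower in ALM-L, with a median log2 fold-change of -0.12. At an unadjusted p under 0.05 in edgeR, 24 of them (4.99%) were higher and 34 (7.07%) lower, beside 3.81 and 3.07% of all features. All 3 Large libraries were above all 3 Small ones in 30 (6.24%, background 6.23%) and below them in 50 (10.4%, background 5.78%). In their category Mitochondria 14 of 20 genes were lower, with a median of -0.28, and in Protein Homeostasis 16 of 28 were higher, with a median of 0.15, and no gene of either category had an unadjusted p under 0.05. Protein Homeostasis includes ribosomal protein genes such as Rps28, Rpl29, Rpl23 and Rpl24. Of the 13 ribosomal genes tested, 12 were higher with every library kept and 12 were lower without ALM-L of 2011, so the count of this category leaned on that library. The 59 genes of Nerve Function had a median of -0.17.

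Among the 6 features that were higher in ALM-L with the smallest p, no grouping could be given a gene name. TRINITY_DN4321_c0_g1 was at 3.08, 3.05 and 2.37 CPM in ALM-S and at 24.4, 25.3 and 30.0 CPM in ALM-L (log2 fold-change 3.23 ± 0.35 SE, adjusted p = 0.0567). TRINITY_DN207_c0_g1 was at 41.4, 41.2 and 68.0 CPM in ALM-S and at 322, 318 and 293 CPM in ALM-L (log2 fold-change 2.63 ± 0.35 SE). TRINITY_DN7935_c2_g1 had 2, 4 and 1 counts in ALM-S and 247, 65 and 138 in ALM-L. TRINITY_DN65371_c0_g1 had 0, 1 and 2 counts in ALM-S and 78, 59 and 59 in ALM-L. In the other direction TRINITY_DN13455_c0_g1 had 155, 84 and 85 counts in ALM-S and 0 in each Large library, which with a floor of 3 counts per library makes it at least 53.1-fold lower in ALM-L. Near presence or absence was the common feature of the last 3 groupings.

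The groupings with very many counts did not pass the test. TRINITY_DN14_c0_g1 was at 23854, 22410 and 26149 CPM in ALM-S and at 25061, 25684 and 24270 CPM in ALM-L, a log2 fold-change of 0.05 ± 0.43 (SE). TRINITY_DN1_c0_g1 and TRINITY_DN0_c0_g1 had log2 fold-changes of -0.66 and 0.26, and both were highest in ALM-S of 2010 or ALM-L of 2011.

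Whether size acted differently in ALM and in ES of the same animals was tested as an interaction over 12 libraries. Over 34169 features edgeR found 0 past an adjusted p of 0.05 and 4.57% at an unadjusted p under 0.05. DESeq2 called 89 of them, or 0.26%. In ES alone, 16448 of 30159 features tested were higher and 13711 lower in Large animals, with a median log2 fold-change of 0.06. Of the 23 muscle genes 20 were lower there, with a median of -0.66 beside -0.75 in ALM, and 10 of these had an unadjusted p under 0.05 in edgeR (background 3.84% for a lower level). Mrlc, Ckm, Calpn and obsurin were in the table that the study had chosen on the ES libraries, and the other 19 had a median of -0.41, with 16 lower and 6 under that p. Those 19 came from the tables of ALM or RN, chosen on Large against Small in the same animals, and are not an unselected set. Msclact in ES was at 20288, 13986 and 22294 CPM in Small and at 9177, 8099.8 and 9355 CPM in Large animals. The 15 cilia genes had a median of 1.34 in ES with all 15 higher, 7 of them at an unadjusted p under 0.05 (background 4.24% for a higher level), beside a median of 0.02 in ALM. Iqcg, CFAP126, CFAP69 and Spag8 were in the ES table, and the other 11 had a median of 1.08 with 3 under that p. In 5 of these 11 (ODF3, Dlc2, Oda/Ic1L, Cfap157 and Ttc29) the Large pool of 2010 was below every Small one.

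Of the 16 skeletogenic genes 3 passed the filter in ES, where Sm29 had 0, 1 and 0 counts in Small and 10, 0 and 3 counts in Large animals. Msp130r2, with 57 to 77 counts in Small and 32 to 94 in Large animals in ES, had a log2 fold-change of 0.13 there beside -2.92 in ALM. Gucy1b3 had one of -0.86 in ES beside 3.67 in ALM (adjusted p of the interaction 0.0825 in edgeR and 1.91e-07 in DESeq2). TRINITY_DN2526_c3_g1, with 8 to 26 counts in ALM-S and 147 to 391 in ALM-L, had -0.55 in ES beside 3.61 in ALM, which was the smallest interaction p of the genes named here (adjusted p = 0.0534 in edgeR).

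Sfe9, Rej8L and Prtelsn_1 had opposite signs in the tissues. In ES, Sfe9 was at 84.7, 548 and 20.6 CPM in Small and at 269.5, 2766 and 2159 CPM in Large animals, a log2 fold-change of 2.99 beside -4.78 in ALM. Rej8L and Prtelsn_1 had log2 fold-changes of 3.20 and 2.64 in ES beside -3.68 and -4.83 in ALM. In ES Rej8L was at 49.8, 228 and 13.8 CPM in Small and at 139, 1391 and 1162 CPM in Large animals. Prtelsn_1 was at 22.0, 144 and 3.71 CPM in Small and at 8.32, 614 and 434 CPM in Large animals there. The sizes thus overlapped in ES for all 3 genes. The difference between the tissues had an adjusted p of 0.278 for Sfe9 and Rej8L and 0.634 for Prtelsn_1 in edgeR, and DESeq2 called all 3 interactions. Fbs_5, of the fibrosurfin type found in the sea urchin's matrix, had 57, 128 and 0 counts in Small and 61, 1787 and 2149 in Large animals in ES, and 29, 29 and 70 counts in ALM-S and 7, 2 and 0 in ALM-L. The groupings TRINITY_DN7935_c2_g1, TRINITY_DN65371_c0_g1 and TRINITY_DN13455_c0_g1 had the same direction in ES as in ALM, and the last had 60, 27 and 81 counts in Small and 0 counts in each Large library of ES.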

How the data were processed

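RNA of each tissue and size was pooled by the authors within a year, made into cDNA with the SMARTer kit and sequenced as paired reads of 100 bases. Per the labels and methods, reads were trimmed (Trimmomatic 0.38), assembled (Trinity) and aligned (Bowtie2 2.3.4). The deposited values are expected counts of RSEM that the authors left without normalization, in whole numbers, for 127198 Trinity groupings. RSEM shares reads between similar copies by estimation, so values of gene families are uncertain. No column of other samples was present.

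SPU names were given to groupings with the printed counts (20 or more in all), or else where the sum of a pair equalled them or 1 grouping held at least 95% of them (at least 100 counts). This linked 114 of 144, 87 of 123 and 732 of 865 genes of the ALM, ES and RN tables, made 87 pairs, and found 0 genes once counts were shuffled. The fold-changes and p-values of the authors in those tables were not used.

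Features passed edgeR's filterByExpr (a minimum count of 10 and a minimum total of 15), were scaled by TMM and tested by the quasi-likelihood F-test of edgeR 4.0.16 on size alone, with Benjamini-Hochberg adjustment over 24483 features. DESeq2 1.42.0, limma 3.58.1, R 4.3.3, Python 3.11.15, pandas 2.3.3 and SciPy 1.17.1 were also used. Per-year ratios used a prior count of 2. An exact permutation test of 3 libraries against 3 cannot go below p = 0.1, and none was made for single genes. The labels mark the sampling year that libraries of both sizes share, and deviations of same-year libraries correlated at -0.55 in 2010, -0.22 in 2011 and 0.04 in 2013 across genes, which are not independent replicates.

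Tested on simulated data with 50 changed genes per fold among 24483, the call rule recovered 0 at 2-fold, 23 at 4-fold, 45 at 8-fold and 49 at 16-fold, with 3 false calls. These counts hold for simulated libraries and do not measure recovery in the real ones. There edgeR called Sm29 (19.1-fold lower in ALM-L, adjusted p = 0.0385). It did not call Sfe9 (27.5-fold lower, 0.0567), Prtelsn_1 (28.4-fold lower, 0.075) or TRINITY_DN65371_c0_g1 (46.8-fold higher, 0.0567). The 10 gene lists, the genes named and the comparison itself were chosen with earlier results of these data known. Named were called features, the qRT-PCR and skeletogenic genes, the 4 genes of each other list with the smallest p (for muscle also the 6 with the most counts), 3 genes of each category of the ALM table, the 6 features of smallest p in each direction and the 6 with the most counts; other list members are named as examples chosen after their values were seen. Alternatives were other scalings, filters, tools, the year as a block and each library left out.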

Additional observations from a re-analysis of the deposited data

How the results depend on the processing

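In ALM the count of called features was 1 with edgeR's TMM, RLE or TMMwsp scaling and with a robust prior, 0 with library totals alone, 2 with limma-voom, 93 with a filter of 1 CPM in all 3 libraries of a size, 167 in a fit to all 18 libraries, 352 with DESeq2 and 771 with no filter beyond 1 count. With the year as a replicate block it was 0 in edgeR and 202 in DESeq2, and leaving out 1 library at a time gave 0 to 9. Without both ALM-S of 2010 and ALM-L of 2011, an alternative chosen after seeing the data, it was 16. The interaction of ALM and ES had 0 features in edgeR, also with the year as a block and without any 1 year, and 89 in DESeq2. The cause of these differences was not tested.

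With library totals alone the median log2 fold-change was -0.43 for muscle (8 genes higher), 0.34 for cilia (2 lower), 1.21 for growth, -1.56 for immune and 1.87 for lysosome genes (0 lower), 4 neuronal genes were higher and 0 ribosomal genes were lower. A filter of 1 CPM left 2 division genes lower and 1 neuronal gene higher. With the year as a block 2 lysosome genes were lower in edgeR and 2 in DESeq2. On the 4 remaining libraries the median was -1.67 for immune and 1.77 for lysosome genes, and 2 skeletogenic genes were higher. Leaving out 1 library at a time moved the median from -0.026 to 0.21 for cilia, from -2.31 to -1.48 for immune, from 1.29 to 1.61 for lysosome and from -1.35 to -0.83 for matrix genes. The same step gave 2 to 5 division genes higher and 3 to 6 lower, 1 to 2 lysosome genes lower, 2 to 4 neuronal genes higher, 1 to 13 ribosomal genes higher and 0 to 12 lower, and 1 to 2 skeletogenic genes higher.

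The log2 fold-change changed sign for Sm30D (0.23 without ALM-S of 2010 and 0.54 on 4 libraries), Lamp1 (-0.0046 and -0.023 with the block in edgeR and DESeq2, -0.60 without ALM-L of 2010), Calpn (0.12 with library totals), and, without ALM-L of 2011, Rpl29 (-0.18), Rpl23 (-0.070) and Rpl24 (-0.18). It also did so for TRINITY_DN0_c0_g1 (-0.03 without ALM-S of 2011, -0.22 without ALM-L of 2011), TRINITY_DN21_c0_g1 (0.14 with library totals, 0.33 without ALM-S of 2010, 0.15 without ALM-L of 2010, 0.04 without ALM-L of 2013), TRINITY_DN14_c0_g1 (-0.0033 without ALM-S of 2011) and TRINITY_DN12_c80_g1 (0.11 with library totals, 0.17 without ALM-S of 2010). Over the fits without 1 library, their values ranged from -1.31 to 0.23 (Sm30D), -0.60 to 1.17 (Lamp1), -0.18 to 1.62 (Rpl29), -0.070 to 1.46 (Rpl23), -0.18 to 1.46 (Rpl24), -0.22 to 0.74 (TRINITY_DN0_c0_g1), -0.88 to 0.33 (TRINITY_DN21_c0_g1) and -0.66 to 0.17 (TRINITY_DN12_c80_g1). The rest of the 89 genes chosen by the rule for named genes kept their sign in every alternative run, and 253 of the fits of these 89 passed the call rule where the reported one did not. List members named only as examples, such as Agsd, were followed only in the counts of their lists. The pooling of animals and the near absence of calls at 2-fold in simulated data limit what 3 libraries a size can show.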

Other observations

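The tables of ES and RN also gave genes by category, and these categories share members with the lists above, such as muscle and cilia genes in Cytoskeleton/Cilia. In ALM the 74 genes of their category Metabolism had a median log2 fold-change of -0.17, with 5 genes higher and 8 lower in ALM-L at an unadjusted p under 0.05 in edgeR, and the 67 genes of Cytoskeleton/Cilia had one of -0.24, with 2 higher and 5 lower. The 78 genes of DNA/RNA Metabolism had a median of -0.19, with 2 higher and 8 lower, and the 33 genes of Protein Trafficking one of 0.01, with 1 higher and 0 lower. In each of these categories the share past that p is to be set beside 3.81% higher and 3.07% lower over all features tested. Calcium toolkit, with 14 genes and a median of 0.27, had 4 genes higher and 1 lower, Stac3 among the higher ones.

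Of the uncharacterized genes, SPU_008297 was at 69.2, 58.7 and 58.3 CPM in ALM-S and at 13.1, 13.8 and 10.8 CPM in ALM-L (log2 fold-change -2.31 ± 0.31 SE, adjusted p = 0.0567 in edgeR). SPU_014944 was at 199.7, 173 and 148 CPM in ALM-S and at 985, 874 and 661 CPM in ALM-L (log2 fold-change 2.27 ± 0.35 SE, adjusted p = 0.0728 in edgeR). Both differed by more than the spread between pools in each year, and neither passed the call rule. Both came from the table chosen on these libraries.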
